A study of Homo sapiens with 4 samples.

Results

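A group of 10 long noncoding RNAs, chosen as nuclear transcripts or as microRNA hosts, was followed through TOP2B depletion in RPE1 cells. They were taken by symbol from the deposited count table, whose Ensembl identifiers were paired with symbols of the GENCODE v44 annotation, and all 10 of NEAT1, MALAT1, NORAD, CYTOR, MIR22HG, MIR31HG, MIR100HG, MIR17HG, PVT1 and H19 were found among its 60725 genes. Of these, 9 passed the filter on low counts (at least 10 reads in at least 2 libraries), as did 15356 genes in all, and H19 did not. The cells were hTERT-RPE1, an established human line from retinal pigment epithelium made immortal with telomerase, in a derivative with the SunTag system. Control cells received the Silencer Select Negative Control No. 2 siRNA and TOP2B knockdown cells the Dharmacon ON-TARGETplus pool against TOP2B, both at 10 nM. Both groups were transfected a second time 48 h later and harvested 72 h after that, on day 5, with 2 biological replicates in each group. Both groups therefore carried an siRNA, and the siRNA sequences and the loss of TOP2B cannot be told apart in these 4 libraries.

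The libraries were RNA-seq of polyA RNA, by the labels with single-end 65-bp reads, with 20310259 to 23887013 reads counted on genes per library. Levels are given as CPM, counts per unit of library size after TMM scaling in edgeR, so that 1 CPM rests on 20.3 to 23.9 reads. TOP2B itself (ENSG00000077097) had 154.7 and 143.4 CPM in control and 15.3 and 13.3 CPM in knockdown libraries, which left 9.58% of the control level. Of 7 markers of differentiated retinal pigment epithelium, RPE65 and TYR had 0 reads in every library and RLBP1 at most 1, while MITF (38.3 and 43.7 CPM in control and knockdown) and OTX2 (11.6 and 12.9 CPM) were present. KRT8 and VIM, typical of epithelial cells in culture, had 1223 and 992.9 CPM in control cells. Of 3 markers of blood and endothelium, CDH5 had at most 1 read, PTPRC at most 7 and PECAM1 between 5 and 24. The libraries come from bulk RNA, so fewer cells that express a transcript and less of it per cell cannot be told apart.

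As background, NEAT1 is the scaffold of paraspeckles, nuclear bodies that hold SFPQ, NONO and other RNA-binding proteins, and MALAT1 collects in nuclear speckles, where splicing factors are stored. NEAT1 has a short polyadenylated and a long form that ends, like MALAT1, in a triple helix and not in a poly(A) tail, so that selection on poly(A) can favour one form, and counts per gene do not separate them. NORAD is a cytoplasmic RNA that binds PUMILIO proteins and is needed for stable chromosome segregation. CYTOR is a cytoskeleton-linked RNA, and PVT1 lies beside MYC. The host genes MIR22HG, MIR31HG, MIR100HG and MIR17HG, and the imprinted H19, are transcripts from which Drosha cuts microRNA hairpins, and reads on a host transcript do not measure the mature microRNA.

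The mature microRNAs are shown because they are what the host transcripts are best known for, and because their seeds (bases 2 to 8, in capitals, the part that pairs with a target) set the sites used at the end of these results. The sequences and positions are those of RefSeq on GRCh38. By the merged exons of the annotation, the hairpin of miR-22 lies in an exon of MIR22HG (chromosome 17, minus strand), that of miR-675 in an exon of H19 (chromosome 11, minus strand) and those of all 6 microRNAs of the miR-17 group in an exon of MIR17HG (chromosome 13, plus strand, from 91350605 to 91351391). The hairpins of miR-31 in MIR31HG (chromosome 9, minus strand) and of miR-100, let-7a-2 and miR-125b-1 in MIR100HG (chromosome 11, minus strand) lie in introns. Further microRNA genes are annotated in exons of CYTOR (MIR4435-1), NEAT1 (MIR612) and PVT1 (MIR1204, MIR1206 and MIR1207) and in an intron of MIR100HG (MIR10526). They are not shown. For the hairpins placed above, the strands most often described as the guide are these.
miR-22-3p: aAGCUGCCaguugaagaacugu
miR-31-5p: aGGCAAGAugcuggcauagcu
miR-100-5p: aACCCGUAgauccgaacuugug
let-7a-5p: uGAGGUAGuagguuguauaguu
miR-125b-5p: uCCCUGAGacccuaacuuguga
miR-17-5p: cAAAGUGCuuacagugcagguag
miR-20a-5p: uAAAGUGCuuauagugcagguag
miR-18a-5p: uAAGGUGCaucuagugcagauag
miR-19a-3p: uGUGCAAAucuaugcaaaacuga
miR-19b-3p: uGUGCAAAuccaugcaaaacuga
miR-92a-3p: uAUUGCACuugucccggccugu
miR-675-5p: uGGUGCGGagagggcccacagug
Seeds were shared only within the cluster of MIR17HG, where miR-17-5p and miR-20a-5p have the seed AAAGUGC and miR-19a-3p and miR-19b-3p the seed GUGCAAA.

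Among these transcripts, levels spanned a wide range in every library. Per kb of annotated exon, NORAD was highest (71.7 CPM per kb, mean of the 4 libraries), followed by NEAT1 (53.4), MALAT1 (28.1), MIR22HG (14.7) and MIR100HG (6.31). NORAD lay above 97.1%, NEAT1 above 95.8% and MALAT1 above 90.7% of the genes tested on this scale. MIR31HG (0.661), CYTOR (0.619), PVT1 (0.389) and MIR17HG (0.256) were much lower, at or below 19.3% of the genes tested. Over the libraries NEAT1 ranged from 37.1 to 67.7 and NORAD from 65.9 to 76.5 CPM per kb. The ranges of these neighbours in the order overlapped, although NORAD was above NEAT1 within each library. Ranges also overlapped for PVT1 (0.344 to 0.436) and MIR17HG (0.167 to 0.358), with PVT1 above MIR17HG within each library. For MIR31HG (0.472 to 0.866) and CYTOR (0.543 to 0.747) they overlapped too. There MIR31HG was above in both control and below in both knockdown libraries. The other neighbours did not overlap. The order also depends on the length used for genes with many annotated exons: over the longest single transcript, MIR100HG (42.0 CPM per kb) came before MALAT1 (28.1) and PVT1 (4.04) before MIR31HG (1.68) and CYTOR (1.47).

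**Figure D1:**
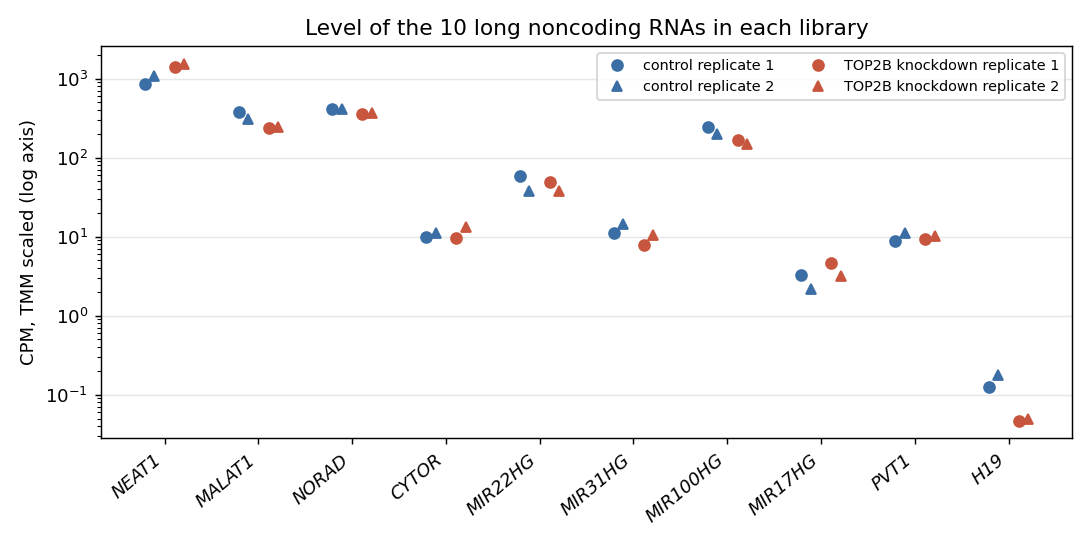
Level of each of the 10 long noncoding RNAs as CPM on a log axis, with 1 point per library, blue for the 2 control and red for the 2 TOP2B knockdown libraries, circles for replicate 1 and triangles for replicate 2. NEAT1 lies higher and MALAT1 and MIR100HG lie lower in both knockdown libraries than in both control libraries, while H19 is close to 0 in all 4.

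How much of each transcript a 65-base read, the length the labels give, can place decides what the counts mean, because gene counting by STAR leaves out reads that map to more than 1 place. All 65-base windows inside the exons of each gene were therefore looked up on both strands of the GRCh38 chromosomes and unplaced contigs, which were also part of the reference that the study names. For NEAT1, MALAT1, MIR100HG and PVT1 at most 0.79% of the windows occurred elsewhere, for MIR22HG and MIR17HG 0%, and for MIR31HG 3.41%. NORAD shared 30.8% of its windows with other places. CYTOR shared 62.6%, and all 10087 of these had their match within 111314104 to 111495725 on chromosome 2, inside the near-identical gene MIR4435-2HG. H19 shared 98.0% of its windows, 3141 of 3206, with an unlocalized contig of chromosome 11, KI270721v1, on which the copy spans bases 50348 to 59734.

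**Figure D2:**
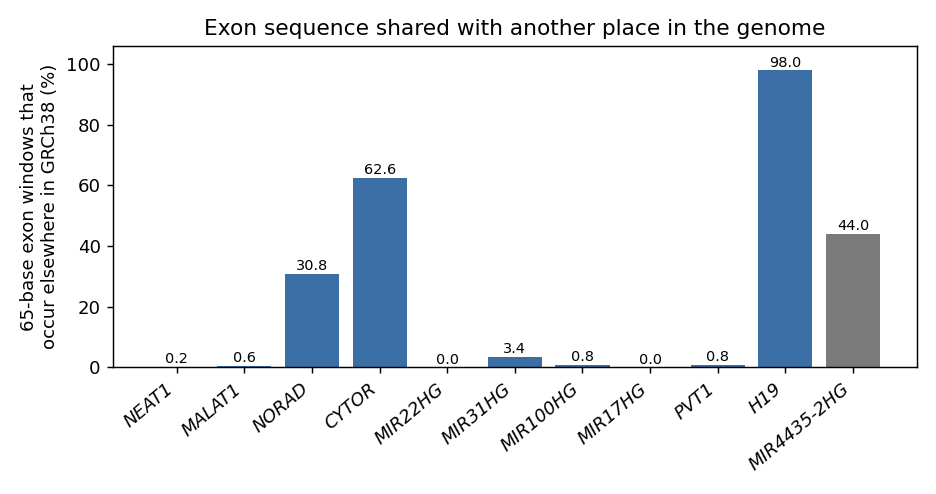
Share of the 65-base windows inside the exons of each gene that occur at another place of GRCh38, in percent, with the value above each bar, for the 10 genes in blue and for MIR4435-2HG, the near-identical copy of CYTOR, in grey. H19 (98.0%) and CYTOR (62.6%) stand out, and NORAD follows with 30.8%.

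The 2 groups were compared across all 15356 genes with edgeR (quasi-likelihood test, Benjamini-Hochberg adjustment), and genes with an adjusted p under 0.05 are referred to as called. This addresses whether the loss of TOP2B, studied here for its part in genome–lamina contacts, went along with changes in these transcripts. MALAT1 fell to 70.5% of its control level and was the only 1 of the 9 transcripts that was called. Over all genes tested, 10.8% were called in either direction, 6.66% higher and 4.18% lower, so 1 of 9 is near the background. NEAT1 and MIR17HG had fitted levels of 152% and 144% of control, and MIR100HG and MIR31HG of 71.5% and 71.8%, without passing the threshold. NORAD, MIR22HG, CYTOR and PVT1 had fitted changes of at most 0.19 on the log2 scale in either direction. The groups did not overlap for 5 of the 9 transcripts (NEAT1, MALAT1, NORAD, MIR31HG and MIR100HG), against 54.3% of all genes tested (27.7% higher and 26.6% lower in the knockdown). With DESeq2, which called 11.8% of its genes, 1 of the 9 was called higher and 2 lower, and with the replicate number as a block, which called 44.2%, 2 were higher and 4 lower.

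**Figure D3:**
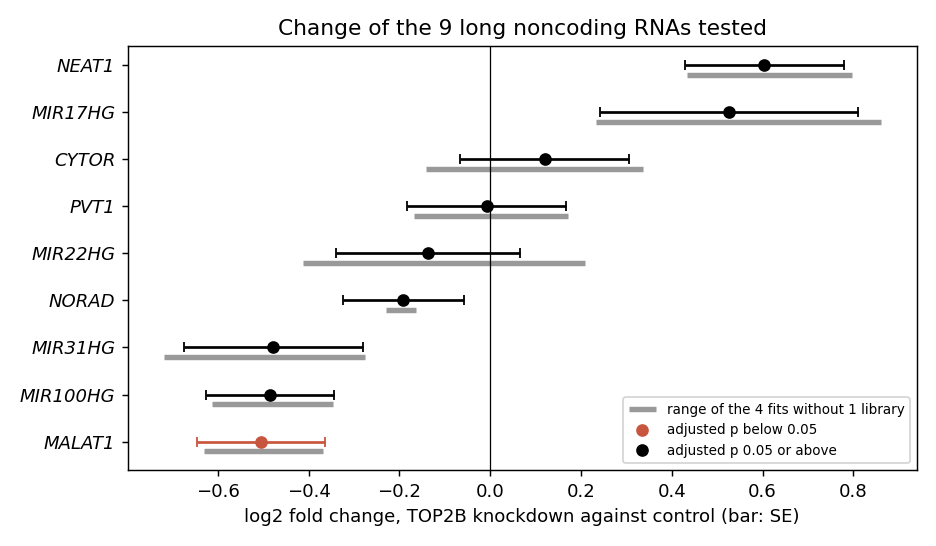
Fitted log2 fold change of TOP2B knockdown against control for the 9 transcripts tested (points, with bars of 1 standard error), red where the adjusted p was below 0.05, and the range of the 4 fits that each left out 1 library (grey). MALAT1 is the only red point, at -0.50, and the grey ranges of CYTOR, PVT1 and MIR22HG cross 0.

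NEAT1 (ENSG00000245532, chromosome 11 from 65422774 to 65445540, plus strand, 1 merged exon) was measured at 843.9 and 1084 CPM in control and at 1390.0 and 1540.2 CPM in knockdown libraries. Both knockdown libraries lay above both control libraries. The means were 964.1 ± 170.1 and 1465 ± 106.3 CPM (SD, n = 2 in each group). The log2 fold change was 0.60 (standard error 0.18, adjusted p = 0.0553, edgeR's quasi-likelihood test), just short of the threshold. It passed with the Wald test of DESeq2 (adjusted p = 0.00392) and without a filter on low counts in edgeR (adjusted p = 0.00151). It did not pass with the size factors of DESeq2 or without normalization factors in edgeR (adjusted p = 0.0623 and 0.0562). Nor did it pass when only genes averaging 100 or more reads were tested (adjusted p = 0.0592, edgeR). The fits without 1 library ranged from 0.43 to 0.80.

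MALAT1 (ENSG00000251562, chromosome 11 from 65497640 to 65508073, plus strand) starts 52100 bases beyond the end of NEAT1 on the same strand. Its level was 374.7 and 312.7 CPM in control and 239.3 and 245.2 CPM in knockdown libraries, with both knockdown libraries below both control libraries. The means were 343.7 ± 43.9 and 242.3 ± 4.21 CPM (SD, n = 2 in each group), and the log2 fold change was -0.50 (standard error 0.14, adjusted p = 0.0487, edgeR's quasi-likelihood test). The call was lost in each of the 4 fits without 1 library (log2 fold change -0.63 to -0.37, adjusted p from 0.0548 to 0.331, same test) and when only genes averaging 100 or more reads were tested (adjusted p = 0.0555). In the annotation, 83.7% of the MALAT1 exon bases also lie in exons of another gene, mostly the antisense transcript TALAM1 (8121 bases). Whether strand was used in the counting is uncertain, so reads from MALAT1 and from its antisense partner cannot be told apart.

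The ratio of NEAT1 reads to MALAT1 reads within a library does not depend on how libraries are scaled. It was 2.25 and 3.47 in the control replicates and 5.81 and 6.28 in the knockdown replicates. The knockdown libraries thus had the higher ratio in 2 of 2 cases, with a mean 2.11 times that of control. Because the groups overlapped for neither gene, this order follows from the values above and is no separate evidence. An exact permutation test of 2 against 2 libraries cannot give a two-sided p below 0.333.

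NORAD (ENSG00000260032, chromosome 20 from 36045618 to 36051018, minus strand) is a single exon of 5401 bases. Its binding of PUMILIO proteins rests on repeats of the 8-base element TGTANATA, which was searched on the transcript strand. The annotated transcript holds 15 such elements, 10 of the form TGTATATA, 4 TGTAAATA and 1 TGTACATA, or 2.78 per kb. Over the canonical transcripts of 15183 tested genes the density was 0.13 per kb, 29.4% held at least 1, and none of 2835 transcripts of like length (0.8 to 1.25 times) held as many as 15. NEAT1 held 6 elements in 22743 bases and the canonical transcripts of the other 8 genes none. The following windows show the element (capitals) with 8 bases on each side, chosen as the first site of the 2 commonest forms and the sole site of the third.
NORAD site 1, chr20:36050185-36050208, minus strand: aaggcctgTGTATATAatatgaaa
NORAD site 3, chr20:36049705-36049728, minus strand: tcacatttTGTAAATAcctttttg
NORAD site 5, chr20:36049495-36049518, minus strand: gtatatagTGTACATAaaggacag
The RNA that carries these elements was at 412.7 and 413.4 CPM in control and at 356.2 and 367.5 CPM in knockdown libraries. Both knockdown libraries were lower and the replicates were close to each other (413.0 ± 0.502 and 361.9 ± 8.04 CPM, SD, n = 2 in each group). The log2 fold change of -0.19 with a standard error of 0.13 did not pass (adjusted p = 0.404, edgeR's quasi-likelihood test).

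CYTOR (ENSG00000222041, chromosome 2 from 87454781 to 87636740, plus strand) had 10.0 and 11.1 CPM in control and 9.66 and 13.3 CPM in knockdown libraries, and the groups overlapped. Its log2 fold change was 0.12 (standard error 0.19, adjusted p = 0.736, edgeR's quasi-likelihood test), and -0.14 without TOP2B knockdown replicate 2. Its copy MIR4435-2HG (ENSG00000172965, chromosome 2 from 111006015 to 111523376, minus strand) was at 46.3 ± 5.94 CPM without and at 50.7 ± 5.95 CPM with the knockdown (SD, n = 2 in each group), with a log2 fold change of 0.13 (adjusted p = 0.606, same test). The ratio of CYTOR to MIR4435-2HG reads was 0.238 and 0.219 in control and 0.208 and 0.242 in knockdown libraries. These counts come from the parts in which the copies differ, so the levels of both are uncertain and understate those transcripts.

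None of the 4 tested members that are microRNA host genes by symbol was called. Both knockdown libraries lay below both control libraries for MIR100HG and MIR31HG, and the groups overlapped for MIR17HG and MIR22HG. MIR100HG (ENSG00000255248, chromosome 11 from 122028325 to 122556721, minus strand) had 242.7 and 201.8 CPM in control and 167.6 and 150.0 CPM in knockdown libraries, without overlap. Its log2 fold change was -0.49 (standard error 0.14, adjusted p = 0.0549, edgeR's quasi-likelihood test), and it passed with DESeq2 (adjusted p = 0.0105) and without a filter on low counts in edgeR (adjusted p = 0.0137), and in 1 of the 4 edgeR fits without 1 library, that without control replicate 2 (-0.61, adjusted p = 0.0449). The other fits ranged down to -0.35 without control replicate 1 (adjusted p = 0.332, same test). MIR100HG did not pass with the size factors of DESeq2 or without normalization factors in edgeR (adjusted p = 0.052 and 0.0574). Nor did it pass when only genes averaging 100 or more reads were tested (adjusted p = 0.0693, edgeR). Reads were also counted on the hairpin gene MIR125B1 in an intron of MIR100HG, 30 and 16 in the control and 17 and 11 in the knockdown libraries (adjusted p = 0.484, same test of edgeR). MIRLET7A2 had at most 2 reads, and MIR100 and MIR31 had 0 reads in every library.

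MIR31HG (ENSG00000171889, chromosome 9 from 21380073 to 21559891, minus strand) had 11.1 and 14.4 CPM in control and 7.82 and 10.5 CPM in knockdown libraries. The higher knockdown library lay just below the lower control library. The log2 fold change was -0.48 (standard error 0.20, adjusted p = 0.154, edgeR's quasi-likelihood test). It passed when control replicate 1 (-0.65) or TOP2B knockdown replicate 2 (-0.72) was left out, at adjusted p = 0.0429 and 0.0458 in edgeR. Without control replicate 2 or TOP2B knockdown replicate 1 both values were -0.28 (adjusted p = 0.581 and 0.606, same test). Exons of IFNA1 and of 3 interferon pseudogenes on the opposite strand cover 12.5% of its exon bases.

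MIR17HG (ENSG00000215417, chromosome 13 from 91347686 to 91397592, plus strand) had 3.25 and 2.15 CPM in control and 4.62 and 3.17 CPM in knockdown libraries. In both groups replicate 1 was higher, by 0.58 and 0.53 on the log2 scale, about as much as the fitted difference between the groups, and the groups overlapped. The log2 fold change was 0.53 (standard error 0.28, adjusted p = 0.276, edgeR's quasi-likelihood test). It rests on 78 and 49 reads in the control and 98 and 64 reads in the knockdown libraries. Exons of other genes, mostly an antisense transcript, cover 24.1% of its exon bases.

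MIR22HG (ENSG00000186594, chromosome 17 from 1711447 to 1717174, minus strand) had 57.9 and 37.6 CPM in control and 49.6 and 37.3 CPM in knockdown libraries. Replicate 1 was again higher than replicate 2 in both groups, by 0.62 and 0.41 on the log2 scale, which is more than the fitted change of -0.14 (standard error 0.20, adjusted p = 0.724, edgeR's quasi-likelihood test). The difference between knockdown and control turned to 0.21 without control replicate 1 and to 0.04 without TOP2B knockdown replicate 2.

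PVT1 (ENSG00000249859, chromosome 8 from 127794526 to 128187101, plus strand) had 8.76 and 11.1 CPM in control and 9.47 and 10.3 CPM in knockdown libraries, with both knockdown values between the control values. Its log2 fold change was -0.01 (standard error 0.18, adjusted p = 0.983, edgeR's quasi-likelihood test), and it turned to 0.17 without control replicate 2 and to 0.05 without TOP2B knockdown replicate 1. Its neighbour MYC, 51575 bases away, had mean levels of 98.2 and 110.1 CPM, with a log2 fold change of 0.16 (adjusted p = 0.531, same test).

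H19 (ENSG00000130600, chromosome 11 from 1995166 to 2004552, minus strand) had 3 and 4 reads in the control and 1 and 1 reads in the knockdown libraries, and no fold is given. Because 98.0% of its 65-base windows have an exact copy on the contig KI270721v1, these reads do not measure the level of the transcript, and a low count here is not evidence of low expression. IGF2, the growth factor gene imprinted together with H19, had 6 and 9 reads in control and 3 and 3 reads in knockdown libraries.

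The 9 transcripts can be set beside their own class. Of 1738 long noncoding genes tested, 57 were called higher and 15 lower, 4.14%, with a median log2 fold change of 0.10, against -0.0029 for all genes tested. Without 1 library that median ranged from 0.014 (without TOP2B knockdown replicate 1) to 0.20 (without control replicate 1). These genes had a median of 25.0 reads per library, against 457.0 for all genes and 1013 for the 9 transcripts, and the part of this difference in the calls was not tested. A fitted change beyond 0.5 in either direction was found for 3 of the 9 (NEAT1, MALAT1 and MIR17HG), for 35.0% of the long noncoding genes and for 21.2% of all genes. The median of the 9 was -0.14, with 3 above and 6 below 0.

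**Figure D4:**
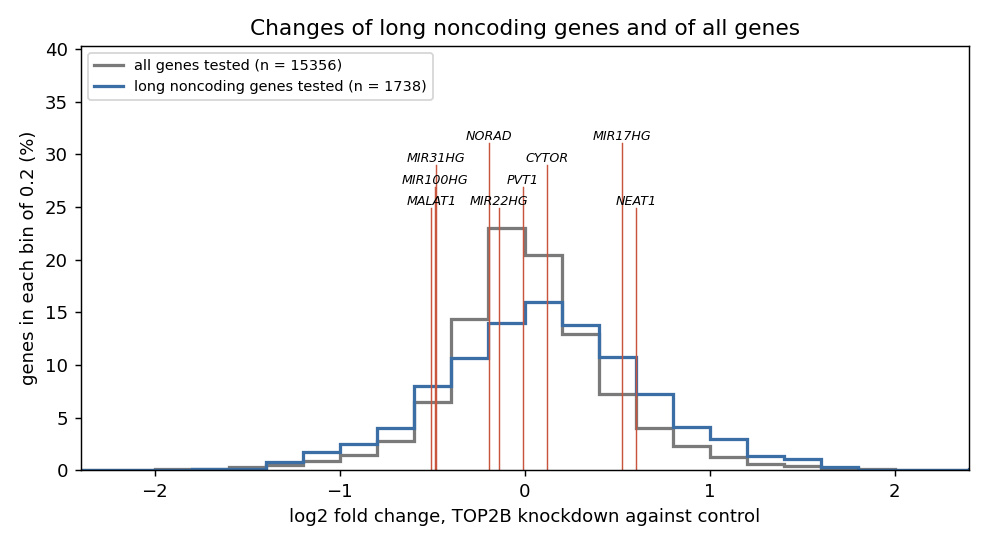
Distribution of the log2 fold change of TOP2B knockdown against control over all 15356 genes tested (grey) and the 1738 long noncoding genes among them (blue), as percent of genes in bins of 0.2, with the 9 transcripts marked by red lines. The few genes beyond 2.4 lie outside the axis, and the 9 transcripts lie between -0.50 and 0.60, inside the bulk of both distributions.

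Of all 1738 long noncoding genes tested, 1006 had fitted changes above 0 and 732 below. Of 20 other well-known ones, chosen from general knowledge with earlier results known, 19 were tested. Among these, 17 had values above 0, with a median of 0.30, and 2 were called, both higher. That is 10.5%, beside 4.14% of the long noncoding genes and 10.8% of all genes tested. MEG3, an imprinted growth-restraining RNA, rose from 262.4 ± 1.46 to 372.5 ± 26.8 CPM (SD, n = 2 in each group; log2 fold change 0.51, adjusted p = 0.0393, edgeR's quasi-likelihood test). MIAT rose from 4.44 ± 1.69 to 8.60 ± 0.303 CPM (log2 fold change 0.95, adjusted p = 0.0359, same test). MEG3 was called in none of the 4 fits without 1 library (adjusted p from 0.122 to 0.299, same test), and MIAT was lost without control replicate 2 (0.61, adjusted p = 0.145, same test). Of 78 other genes named as microRNA hosts by their symbols, 23 were tested, with a median of 0.22 and 14 above 0. Leaving out control replicate 2 gave a median of 0.05, and leaving out TOP2B knockdown replicate 1 one of 0.09. Only MIR924HG was called among them, at 1.70 and 3.42 CPM (log2 fold change 1.02, adjusted p = 0.0481, same test). Its call was lost with DESeq2 (adjusted p = 0.116), with the size factors of DESeq2 or no normalization factors in edgeR (adjusted p = 0.0506 and 0.0516), and without control replicate 1 or TOP2B knockdown replicate 1 (adjusted p = 0.197 and 0.113, edgeR). MIR222HG, at 52.6 and 43.0 CPM, had a log2 fold change of -0.29 (adjusted p = 0.232, same test).

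Genes for proteins that work with these RNAs were examined next. MATR3, a paraspeckle protein gene, has 2 entries in the table with different counts, so its level and change are uncertain. ENSG00000015479 had a log2 fold change of 0.31 (adjusted p = 0.609, edgeR's quasi-likelihood test), and ENSG00000280987 was called higher at 1.18 (adjusted p = 0.0104, same test), at 2.25 and 5.10 CPM. With the first of these entries in the list, none of the 16 paraspeckle protein genes was called, with values between -0.11 and 0.36 and a median of 0.14. HNRNPK (675.1 and 750.0 CPM) and NONO (668.8 and 709.3 CPM) were the most abundant, at 0.15 and 0.08. Of 20 nuclear speckle genes, only SON, a large scaffold of speckles, was called, from 143.8 ± 14.7 to 353.5 ± 32.0 CPM (SD, n = 2 in each group; log2 fold change 1.30, standard error 0.14, adjusted p = 0.000927, edgeR's quasi-likelihood test). SRRM2 and SRSF3, the most abundant of the list, had changes of 0.22 and 0.25 (adjusted p = 0.509 and 0.263, same test). The median of the list was 0.15. Over all genes tested, 10.8% were called.

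None of 8 NORAD partners was called, beside 10.8% of all genes tested. Their values ran from 0.03 (TOP1) to 0.27 (PUM2), with a median of 0.12. All 8 were above 0, as were 7640 of the 15356 genes tested, and all come from the same 4 libraries. RBMX and KHDRBS1 were the most abundant, at 0.24 and 0.26. None of 13 genes of the Microprocessor and of nuclear RNA decay was called, with a median of 0.07, DDX5 at 0.07 and DDX17 at -0.04. DESeq2 called 0 genes in each of the paraspeckle, NORAD partner and Microprocessor and decay lists.

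Of 11 tested transcription factors known to act on these RNAs, 4 were called higher and 1 lower, beside 10.8% of all genes called in either direction. The list was chosen with earlier results of these data known, so this share is no separate evidence. E2F1, E2F2 and E2F3, which drive cell cycle genes and are known to activate MIR17HG, rose by 0.74, 1.89 and 0.43 on the log2 scale (adjusted p = 0.00685, 0.000754 and 0.0497, edgeR's quasi-likelihood test). E2F2 went from 2.74 ± 0.337 to 10.2 ± 0.907 CPM (SD, n = 2 in each group). EPAS1, a hypoxia-inducible factor, fell by 0.60 (adjusted p = 0.0234, same test). The part of these factors in the values of MIR17HG and NEAT1 was not tested. E2F1 and E2F2 were called in all 4 fits without 1 library and E2F3 in none (adjusted p from 0.0855 to 0.322, edgeR), nor was E2F3 called with DESeq2 (adjusted p = 0.0535). EPAS1 was lost without control replicate 2 or TOP2B knockdown replicate 1 (adjusted p = 0.119 and 0.168, edgeR). Among 11 imprinted genes tested, besides MEG3, only GRB10 was called, with a rise of 0.43 (adjusted p = 0.0416, same test). It too was called in none of the 4 fits without 1 library (adjusted p from 0.144 to 0.225, same test).

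The nearest tested protein-coding genes within 500 kb were examined as neighbours. FRMD8, 9249 bases from NEAT1, had 64.5 and 58.0 CPM in control and knockdown cells (log2 fold change -0.15, adjusted p = 0.448, edgeR's quasi-likelihood test). EPB41L1, 40486 bases from NORAD, fell from 55.6 to 36.4 CPM (-0.61, adjusted p = 0.0199, same test), and SORL1, 394562 bases from MIR100HG, fell from 55.2 to 23.9 CPM (-1.21, adjusted p = 0.00243, same test). SORL1 was called in all 4 fits without 1 library, and EPB41L1 was lost without control replicate 2 or TOP2B knockdown replicate 1 (adjusted p = 0.0699 and 0.117, same test). A further 10 neighbours were not called.

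Genes with a site for a hosted microRNA were described by their median and their counts of calls, with no test. A site was taken as the 8 bases that match the seed followed by an A, searched in the 3′ UTR of the canonical transcript. Over 12385 genes with a 3′ UTR the median log2 fold change was -0.0174, 7.56% were called higher and 4.89% lower. The medians of the 10 seed families lay between -0.0931 and 0.0081. The 710 genes with the site GCACTTTA of miR-17-5p and miR-20a-5p had a median of -0.0787, with 37 called higher and 47 lower. The 474 genes with the site GTGCAATA of miR-92a-3p had a median of -0.0781, and the 902 genes with the site TTTGCACA of miR-19a-3p and miR-19b-3p one of -0.0566. For these 3 families the medians over each of the 4 knockdown-to-control library pairs all lay below 0, from -0.1245 to -0.011, beside -0.021 to 0.0002 for all genes. The same held for miR-18a-5p (pairs from -0.0492 to -0.0069), with 18 genes called higher and 25 lower (10.6%). The upper ends of these ranges lay within the range of all genes. The 4 pairs reuse the same 4 libraries and are not independent of each other. The 40 genes with the site TACGGGTA of miR-100-5p had a median of -0.0931, with pairs from -0.241 to -0.0438, 1 called higher and 7 called lower. The medians for the sites of miR-22-3p (287 genes, -0.014), miR-31-5p (590 genes, -0.0208), let-7a-5p (531 genes, -0.0237), miR-18a-5p (236 genes, -0.0287), miR-675-5p (72 genes, 0.0081) and miR-125b-5p (746 genes, 0.0024) lay close to that of all genes. For miR-18a-5p this holds for the median only, as 10.6% of its genes were called lower beside 4.89% of all genes. With the 7-base match in place of the 8-base site, the medians of miR-17-5p, miR-92a-3p and miR-100-5p were -0.035, -0.0209 and -0.0448. All 10 families then lay below the -0.0174 of all genes, from -0.0483 for miR-675-5p to -0.0209 for miR-92a-3p. Among those outside the cluster of MIR17HG, miR-22-3p and let-7a-5p had -0.0366 and -0.0362. Genes with sites were not matched to all genes for the length of the 3′ UTR.

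**Figure D5:**
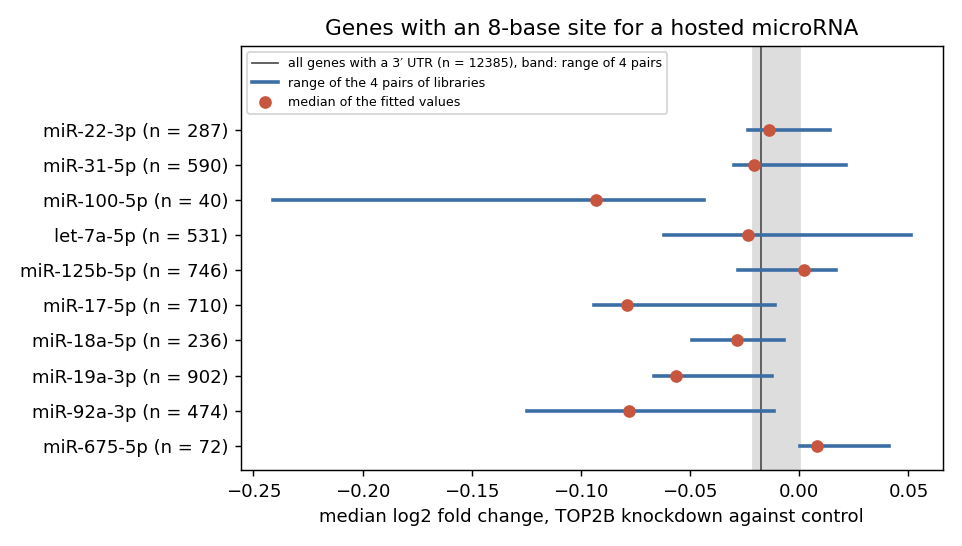
Median log2 fold change of the genes with an 8-base site for each hosted microRNA in the 3′ UTR (red points, with the number of genes), the range over the 4 knockdown-to-control library pairs (blue lines), and the same for all 12385 genes with a 3′ UTR (grey line and band). All medians lie between -0.0931 and 0.0081, and those of miR-17-5p, miR-92a-3p and miR-100-5p lie furthest below the grey line.

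The 6-base word GCAACC was counted because it was unevenly spread over the 3′ UTRs of called genes in these data, being present in 39.3% of the 936 higher, 19.8% of the 606 lower and 22.5% of the 10843 genes not called. Among the canonical transcripts of the 10 genes, MALAT1 held 4 copies, NEAT1 3, and MIR22HG, MIR31HG and PVT1 1 each, while NORAD, CYTOR, MIR100HG, MIR17HG and H19 held none. Over all tested transcripts 44.1% held the word, at 0.19 per kb, against 0.38 per kb in MALAT1 and 0.13 per kb in NEAT1. Among the called list genes named above, SON and E2F2 held 1 copy in the 3′ UTR, GRB10 held 2, and E2F1, E2F3 and EPAS1 held none. Because the word was picked from these same calls, its presence in called genes is no separate evidence. Among those not called, SRSF3 and MYC held 1, PECAM1 2, and MITF and OTX2 3 each. No copy was found for HNRNPK, NONO, SRRM2, RBMX, KHDRBS1, DDX5, DDX17, PUM2, TOP1, KRT8 and VIM, which were not called either. The part of this word in their values was not tested.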

How the data were processed

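RNA-seq of 2 control and 2 TOP2B knockdown libraries was used, grouped by the sample titles. The authors checked reads with FastQC 0.11.6, aligned them to GRCh38 with STAR 2.5.4a and deposited raw read counts per gene of GENCODE v24, without normalization. The count columns carry a stranded paired-end tag, whereas the labels give single-end reads and a TruSeq RNA kit, so how strand and read ends were treated in counting is uncertain. The 4 further columns repeat the same values and were not used. Positions, lengths and symbols came from GENCODE v44 of the same build, which held 98.9% of the tested genes.

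The deposited counts of genes reaching 10 reads in 2 or more libraries were fitted in edgeR 4.0.16 (TMM, glmQLFit, glmQLFTest, condition only, adjusted over all genes tested). Standard errors are the fold change divided by the root of F, and a prior count of 2 entered log2 CPM. DESeq2 1.42.0, other scalings and filters, the replicate number as a block and fits without each library were alternatives. In fits without 1 library the lone sample is assumed to vary like the others. P-values measure the spread between these samples only. The fit was tested on simulated data.

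The members and lists were chosen with earlier results of these data known. Named genes were the 10 members, TOP2B, called list genes (at most 6 per list, or the 2 most abundant where fewer than 2 were called), MIR4435-2HG, and neighbours that were called or lay beside a called member. PUM2, TOP1, IGF2, the hairpin genes, MATR3 and the word GCAACC were added after the values were seen. Some genes that this rule names are not reported here.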

Additional observations from a re-analysis of the deposited data

How the results depend on the processing

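Having 2 replicates per group limits what can be called here. Without 1 library at a time, the log2 fold change ranged from 0.43 to 0.80 for NEAT1, -0.63 to -0.37 for MALAT1, -0.61 to -0.35 for MIR100HG, -0.72 to -0.28 for MIR31HG, 0.23 to 0.86 for MIR17HG and -0.23 to -0.16 for NORAD. It changed sign for CYTOR (-0.14 to 0.34), MIR22HG (-0.41 to 0.21) and PVT1 (-0.17 to 0.17). MIR31HG passed without control replicate 1 or TOP2B knockdown replicate 2 (adjusted p = 0.0429 and 0.0458, edgeR), and MIR100HG without control replicate 2 (adjusted p = 0.0449, edgeR). Those fits called 0 to 1 transcripts lower, 1 to 3 nuclear speckle genes higher, 0 to 1 imprinted genes higher, 2 to 3 transcription factors higher and 0 to 1 lower, 0 to 2 other long noncoding RNAs and 0 to 2 other host genes.

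Values passed the threshold without a filter on counts for NEAT1 (0.60) and MIR100HG (-0.49) and with DESeq2 for NEAT1 (0.59) and MIR100HG (-0.50), so that both settings called 1 transcript higher and 2 lower. With a mean of at least 100 counts MALAT1 (-0.50) missed it, leaving 0. MIR924HG was lost with the size factors of DESeq2, without normalization factors, with the mean filter and with DESeq2 (0 other host genes each), and the mean filter left 1 other long noncoding RNA. Over all long noncoding genes, 105 higher and 42 lower were called without a filter, 29 and 6 with the mean filter, and 36 higher with DESeq2. The causes were not tested.

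The labels number the replicates but do not say what a number shares, and there are only 2 pairs. The differences between replicates 1 and 2 correlated at 0.479 across genes between the groups. With the replicate block, 3440 genes were called higher and 3346 lower, 44.2%, and NEAT1 (0.61), NORAD (-0.19), MIR31HG (-0.48), MIR100HG (-0.48) and MIR17HG (0.53) passed, so that 2 transcripts were higher and 4 lower. The block called 8 paraspeckle, 11 nuclear speckle, 4 NORAD partner and 5 Microprocessor genes higher and 1 Microprocessor gene lower, 3 imprinted genes and 2 transcription factors lower, 8 other long noncoding RNAs higher, 5 other host genes higher and 5 lower, and 246 and 119 long noncoding genes.

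Per kb of the longest transcript, CYTOR had 1.47, MIR31HG 1.68, MIR100HG 42.0, MIR17HG 0.502 and PVT1 4.04 CPM. Per kb of exon windows found once in the genome, a length chosen after seeing the data, NORAD had 104.9, CYTOR 1.83 and PVT1 0.459 CPM. With 7-base sites the medians moved to -0.0366 (miR-22-3p), -0.0215 (miR-125b-5p), -0.035 (miR-17-5p), -0.0209 (miR-92a-3p) and -0.0483 (miR-675-5p).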
